A study of Homo sapiens with 2 samples.

Results

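The nuclear genes of oxidative phosphorylation were examined for DNase I hypersensitive sites in 2 osteosarcoma lines, Saos-2 and U2OS. Members were chosen by symbol among RefSeq protein-coding genes on chromosomes 1 to 22: the NDUFA, NDUFB, NDUFC, NDUFS and NDUFV genes, the UQCR genes, the ATP5F1, ATP5M and ATP5P genes, the COX4 to COX8 subunit genes, and SDHA, SDHB, SDHC, SDHD, CYC1 and CYCS. This rule gave 94 genes of 19126. By their symbols, 8 assembly factors (NDUFAF1 to NDUFAF8), the COX7A2L gene and the readthrough genes NDUFC2-KCTD14 and ATP5MF-PTCD1 are included, and each readthrough gene shares DNA with another member. The genes NDUFA1, NDUFB11 and COX7B lie on the X chromosome and fell outside the rule. The same holds for COXFA4 and COXFA4L2, formerly named NDUFA4 and NDUFA4L2.

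Both lines are established human cell lines, and the labels name no treatment or genetic change for either. In DNase-seq, DNase I cuts chromatin that nucleosomes leave accessible, and stretches with many cuts are called as hotspots. The study profiled 1 library of each line, so no value below has a replicate error, no test was made, and every difference compares these libraries. A gene was counted as covered in a line when at least 1 hotspot of that line's list, called at a false discovery rate of 0.05, lay within 1 kb of its span on hg38.

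Oxidative phosphorylation takes place at the inner mitochondrial membrane. Complexes I and II pass electrons to ubiquinone, complex III passes them to cytochrome c, complex IV passes them to oxygen, and ATP synthase uses the proton gradient that complexes I, III and IV build. Most subunits are encoded in the nucleus and needed in nearly every cell. A few complex IV subunits have isoforms made mainly in heart, skeletal muscle, lung or testis. Among the factors known to bind promoters of these genes are NRF1, the ETS factor GABPA, YY1 and SP1, which binds the GC box.

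Promoters from both ends of the range are shown first, because the results turn on whether the start of a gene carried a hotspot. The first 3 belong to the members with the most significant promoter hotspots in both lines together: ATP5PB, a peripheral stalk subunit of ATP synthase, NDUFAF8, a complex I assembly factor, and CYCS, which encodes cytochrome c. The other 3 belong to isoform genes of complex IV with no hotspot over the promoter in either line: COX6A2 (heart and skeletal muscle), COX6B2 and COX7B2 (both mainly testis). They come first in alphabetical order among 7 such members. The rest are the isoform gene COX8C and the complex I genes NDUFB10, NDUFS6 and NDUFS7. Each stretch ends at the base before the annotated start, runs 5′ to 3′ on the strand of the gene and comes from RefSeq on GRCh38.p14. Matches to the motifs spelled out in the next paragraph are in capitals.
ATP5PB: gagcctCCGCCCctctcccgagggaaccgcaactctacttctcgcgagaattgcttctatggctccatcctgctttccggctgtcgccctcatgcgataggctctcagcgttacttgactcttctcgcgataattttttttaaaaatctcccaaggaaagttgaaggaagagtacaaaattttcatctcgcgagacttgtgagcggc
NDUFAF8: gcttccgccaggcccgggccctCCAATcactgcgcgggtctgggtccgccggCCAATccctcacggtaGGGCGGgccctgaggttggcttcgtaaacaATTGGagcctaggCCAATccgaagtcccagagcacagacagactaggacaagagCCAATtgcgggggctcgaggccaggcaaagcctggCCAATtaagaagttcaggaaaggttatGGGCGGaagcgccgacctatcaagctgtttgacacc
CYCS: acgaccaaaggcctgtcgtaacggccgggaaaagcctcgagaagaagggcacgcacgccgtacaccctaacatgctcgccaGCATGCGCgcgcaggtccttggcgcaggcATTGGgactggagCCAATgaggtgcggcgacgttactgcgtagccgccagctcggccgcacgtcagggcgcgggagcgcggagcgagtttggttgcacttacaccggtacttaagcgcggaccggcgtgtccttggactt
COX6A2: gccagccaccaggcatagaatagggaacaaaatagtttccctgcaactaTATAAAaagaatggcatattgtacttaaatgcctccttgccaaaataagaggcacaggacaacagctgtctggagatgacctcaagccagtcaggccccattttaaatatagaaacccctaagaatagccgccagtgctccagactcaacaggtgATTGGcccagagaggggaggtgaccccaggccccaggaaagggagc
COX6B2: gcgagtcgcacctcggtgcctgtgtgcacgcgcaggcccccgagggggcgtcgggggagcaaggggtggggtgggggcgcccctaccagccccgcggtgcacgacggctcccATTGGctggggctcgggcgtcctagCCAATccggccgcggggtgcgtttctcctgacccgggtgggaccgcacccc
COX7B2: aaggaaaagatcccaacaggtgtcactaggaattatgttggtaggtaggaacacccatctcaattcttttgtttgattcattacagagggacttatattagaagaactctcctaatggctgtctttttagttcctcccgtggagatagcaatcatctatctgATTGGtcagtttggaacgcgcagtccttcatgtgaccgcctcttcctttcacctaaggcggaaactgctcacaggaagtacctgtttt
Their positions are chr1:111449257-111449463 on the plus strand for ATP5PB, chr17:81239061-81239310 on the plus strand for NDUFAF8, chr7:25125261-25125510 on the minus strand for CYCS, chr16:31428361-31428610 on the minus strand for COX6A2, chr19:55354720-55354907 on the minus strand for COX6B2 and chr4:46909246-46909495 on the minus strand for COX7B2. The stretches of ATP5PB and COX6B2 are shorter, since 43 and 62 of the 250 bases before their starts lie inside the neighbouring genes WDR77 and GARIN5B and are not shown.

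Exact matches to 7 motifs were searched on both strands of the 250 bases before each start. Over the 21156 promoter windows of protein-coding genes, the NRF1 letters GCGCATGC were found in 3.19%, the ETS and GABPA letters CCGGAAG in 10.7% and the YY1 letters AAGATGGC in 1.38%. The GC box, GGGCGG, was found in 54.0%, and the CCAAT box, searched as the letters of its name, in 32.4%. The cAMP response element, TGACGTCA, was found in 2.05% and the TATA box, searched as TATAAA, in 9.03%. The CYCS promoter held the NRF1 letters on its reverse strand from position -169, counted from the start, and CCAAT boxes at -140 and -127. In the NDUFAF8 promoter there were 6 CCAAT matches and 2 GC boxes, and in the ATP5PB promoter 1 GC box. Among the 3 uncovered promoters shown, COX6A2 held 1 TATA box match, from position -201, and 1 CCAAT match, and COX7B2 held 1 CCAAT match. COX6B2 held 2 CCAAT matches and, in the bases not shown, 1 GC box. No match overlapped another. The CpG content of these 3 uncovered promoters spanned a wide range. The 250 bases held 26 CpG dinucleotides at COX6B2, 5 at COX7B2 and 1 at COX6A2, against 31 at CYCS, 18 at ATP5PB, 15 at NDUFAF8 and a median of 17 over all windows. A match is a description of the letters. Only 75 of the 94 members (79.8%) had a window in the reference table, below the minimum of 80% set for a comparison of the whole list, so no motif share is given for the list.

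Most of the 94 genes were covered in both lines. In Saos-2, 76 members (80.9%, Wilson 95% interval 71.7 to 87.5) had a hotspot within 1 kb, where 65.7% of all protein-coding genes did. In U2OS it was 83 members (88.3%, 80.2 to 93.3), where 71.8% of all genes did. Of the members, 75 (79.8%) were covered in both lines (61.1% of all genes), 1 (1.06%) in Saos-2 alone (4.63%), 8 (8.51%) in U2OS alone (10.7%) and 10 (10.6%) in neither (23.6%). These intervals cover counting error only.

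The U2OS list was longer, with 63388 hotspots against 51556, and the read depth of either library is unknown; its part in any difference between the lists was not tested. Near the members lay 113 Saos-2 hotspots and 129 U2OS hotspots. Member genes were shorter than the rest, with a median length of 10552.5 bp against 24476.5 bp. More of them lay close to another protein-coding gene: 53 of 94 (56.4%) had one within 1 kb, against 39.5% of all genes. Of the member hotspots, 51 of 113 in Saos-2 (45.1%) and 56 of 129 in U2OS (43.4%) also lay within 1 kb of another gene, and such a hotspot cannot be assigned to either gene. Not every gene near such a hotspot is named below. Among the 41 members with no other gene within 1 kb of the span, 32 (78.0%) were covered in Saos-2 and 36 (87.8%) in U2OS. Of all genes without a neighbour, 60.6% and 67.5% were, below the members' Wilson 95% intervals of 63.3 to 88.0 and 74.5 to 94.7. Among the 53 members with a neighbour, 44 (83.0%) and 47 (88.7%) were covered. Their intervals, 70.8 to 90.8 and 77.4 to 94.7, included the 73.4% and 78.3% of all genes with a neighbour. When only hotspots near a single gene were counted, the order turned round. In Saos-2, 46 members (48.9%) had one, below the 53.0% of all genes, and in U2OS 51 (54.3%), below 58.1%. That setting drops hotspots near more than 1 gene, and members had neighbours more often. It therefore does not compare the list with all genes on equal terms.

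**Figure D1:**
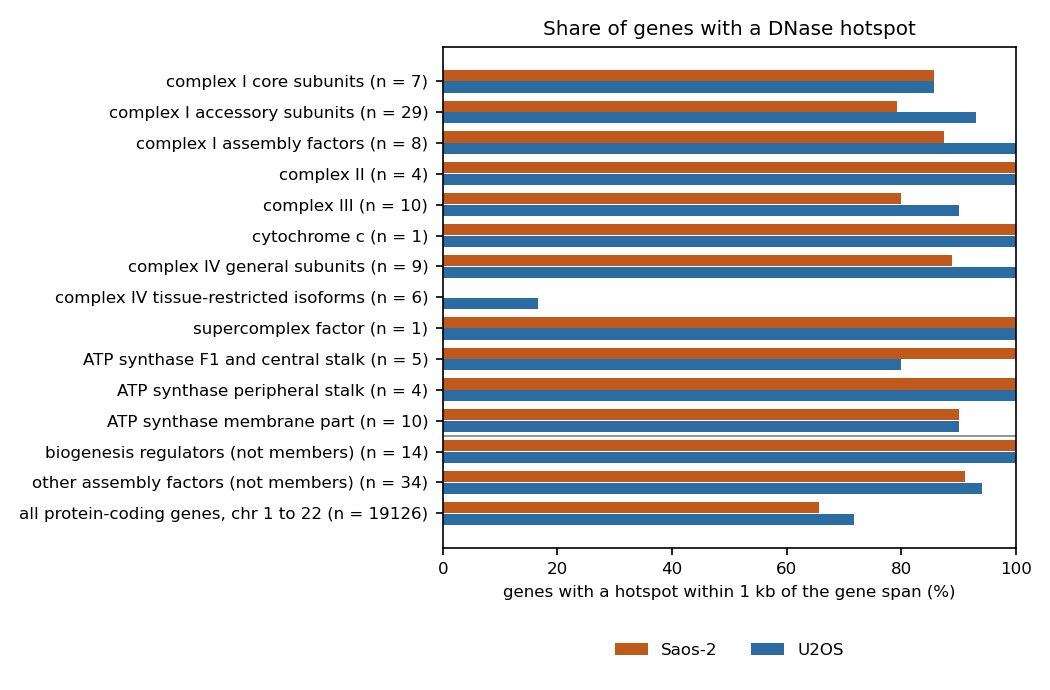
Share of genes with a hotspot within 1 kb of the gene span, in percent, for each role group of the members, the 2 lists of related genes and all protein-coding genes (bars, 1 library per line; n is the number of genes). Every group except the tissue-restricted isoforms of complex IV, with 0 and 1 of 6 genes covered, stood above the 65.7% and 71.8% of all genes.

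Complex I, which oxidises NADH, was covered at most of its genes. Of its 7 core subunits encoded in the nucleus, 6 had a hotspot in each line and NDUFS7 had none in either. Of the 29 accessory subunit genes, the readthrough gene NDUFC2-KCTD14 counted among them, 23 were covered in Saos-2 and 27 in U2OS. In Saos-2 that readthrough gene was covered and NDUFC2 itself was not. Of the 8 assembly factors, 7 were covered in Saos-2 and 8 in U2OS. Among the core subunits the most significant hotspot in Saos-2 was that of NDUFS1, with a −log10 value of 17.2 there and 14.5 in U2OS, at a start it shares with EEF1B2. Covered bases were higher in U2OS for 5 of the 6 core subunits, with a median log2 ratio of U2OS over Saos-2 of 0.49 (range -0.18 to 1.69), whereas the 23 accessory subunits covered in both lines had a median of 0.00 (range -1.40 to 1.95). The difference between these groups was not tested.

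Accessory subunits differed widely among themselves. The hotspot at NDUFA11, a membrane-arm subunit, also lay within 1 kb of VMAC and had −log10 values of 39.1 (Saos-2) and 29.9 (U2OS). It was the widest of any member in both lines, at 1274 and 1226 bp. NDUFB4 followed the other order, with 25.3 in Saos-2 and 31.6 in U2OS. The start of NDUFA5 had 39.1 in Saos-2 and 8.64 in U2OS, the largest gap in favour of Saos-2 among the genes of this complex. It was named after its values were seen. Its covered bases differed less, with 828 bp in Saos-2 against 582 bp in U2OS. NDUFAF8, which helps to assemble the complex, had the highest value of any member in Saos-2, at 43.9, and 59.3 in U2OS. Its hotspots in both lines also lay within 1 kb of TEPSIN.

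All 4 subunits of complex II, the succinate dehydrogenase that links the citric acid cycle to the chain, were covered in both lines. SDHA, the flavoprotein, had 648 bp of hotspots in Saos-2 and 678 bp in U2OS, with highest −log10 values of 10.0 and 10.5. SDHB, the iron-sulfur subunit, had 817 and 535 bp. Its promoter hotspot had values of 11.4 and 16.5, and the further bases in Saos-2 came from 2 hotspots inside the gene, at chr1:17040831-17041054 and chr1:17046210-17046358, that U2OS lacked. SDHC and SDHD anchor the enzyme in the membrane. SDHC had 295 and 235 bp with values of 6.43 and 5.45, and SDHD had 368 and 361 bp with 17.8 and 23.2, at a start it shares with TIMM8B. No complex II gene reached a 2-fold difference in covered bases between the lines.

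Complex III, the cytochrome bc1 complex, had 8 of its 10 genes covered in Saos-2 and 9 in U2OS. The 10 include UQCRHL, a copy of UQCRH that had no hotspot in either line. UQCRQ, a small subunit whose start lies near that of GDF9, had a −log10 value of 19.0 in Saos-2 and 54.4 in U2OS with 440 and 517 covered bases. The gene of the Rieske iron-sulfur protein, UQCRFS1, had 3.60 in Saos-2 and 28.7 in U2OS over 186 and 380 bp; it was named after its values were seen. CYC1, which encodes cytochrome c1, was covered in U2OS alone, where a hotspot of 676 bp at chr8:144094508-144095183 overlapped the lower end of its span with a value of 12.4. In Saos-2 the nearest hotspot lay 6660 bp away. CYCS, the soluble carrier that takes electrons from this complex, was nearly the same in width in both lines, with 622 and 643 bp. It reached 39.5 in Saos-2 and 63.1 in U2OS, from hotspots also within 1 kb of SPMIP4. The CYCS promoter is the third sequence above.

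In complex IV the general subunits and the tissue-restricted isoforms differed. All 9 general subunits were covered in U2OS and 8 in Saos-2, whereas of the 6 tissue-restricted isoforms none was covered in Saos-2 (Wilson upper limit 39.0%) and 1 in U2OS. COX4I1 had 345 bp with a −log10 value of 10.8 in Saos-2 and 283 bp with 11.2 in U2OS, and its lung isoform COX4I2 had no hotspot. COX6A1 had 424 and 604 bp with values of 25.1 and 33.5, and COX6A2 had none. COX6B1 had 315 and 354 bp with 5.38 and 12.4, and COX6B2 had none. COX7A2 had 645 and 417 bp with 13.1 and 22.3, and COX7A1, the isoform of heart and skeletal muscle, had none. COX8A had 520 and 523 bp with 37.1 and 40.1, and the testis isoform COX8C had none. In each of these 5 pairs the broadly expressed gene was thus covered in both lines and its partner in neither.

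The nearest hotspots to the uncovered isoforms lay between 3413 bp (COX4I2) and 14647 bp (COX6A2) from the gene in Saos-2, and between 9589 bp (COX7A1) and 16701 bp (COX4I2) in U2OS. COX7B2 was the exception to the lack of hotspots. It had 3 hotspots in U2OS that covered 754 bp, the strongest at chr4:46792982-46793418 with a −log10 value of 17.2. All 3 lay inside the gene, with centres between 22305 and 116045 bp downstream of the annotated start, and its promoter window was uncovered. In Saos-2 no hotspot lay within 213575 bp of the gene. With windows around the gene ends only, no tissue-restricted isoform was covered in U2OS, and with windows of 5 kb 1 was covered in Saos-2. COX5A, a general subunit without isoforms in the list, was covered in U2OS alone, by 1 hotspot of 365 bp with a value of 10.9, and the nearest Saos-2 hotspot lay 46363 bp away. COX7A2L, which joins complexes III and IV in supercomplexes, had 1007 and 1092 bp with values of 13.4 and 21.7.

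ATP synthase was covered almost throughout. Its 4 peripheral stalk genes were all covered in both lines, and their covered bases differed little, with log2 ratios between -0.08 and 0.09. ATP5PB had the highest value of any member in U2OS, at 75.3, against 41.9 in Saos-2, from hotspots of 536 and 503 bp at a start it shares with WDR77. ATP5PF had 1022 bp in Saos-2 against 994 bp in U2OS. Both of its hotspots in each line also belonged to GABPA, the ETS factor named above, which lies within 1 kb. In the membrane part 9 of 10 genes were covered in each line, all but ATP5MGL, a copy of ATP5MG. The 9 include the readthrough gene ATP5MF-PTCD1, which shares a hotspot with ATP5MF in each line. ATP5MK had 29.7 in Saos-2 and 55.0 in U2OS, from hotspots also within 1 kb of PDCD11. The readthrough gene ATP5MF-PTCD1 had 31.5 and 21.3 from a hotspot that lies near PTCD1 and CPSF4.

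The catalytic F1 part was covered at 5 of 5 genes in Saos-2 and 4 of 5 in U2OS. ATP5F1B, the catalytic beta subunit, had 512 bp with a highest value of 11.8 in Saos-2 and 642 bp with 66.3 in U2OS. ATP5F1E, the epsilon subunit, had 303 bp with 5.34 in Saos-2 and 676 bp with 21.1 in U2OS. ATP5F1D, the delta subunit, was the only member covered in Saos-2 alone, by a hotspot of 151 bp with a value of 2.80 whose edge lay 3 bp outside the gene span. In U2OS the nearest hotspot was 4933 bp away. With the gene span alone as the window, no member was covered in Saos-2 alone, where 4.98% of all genes were.

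**Figure D2:**
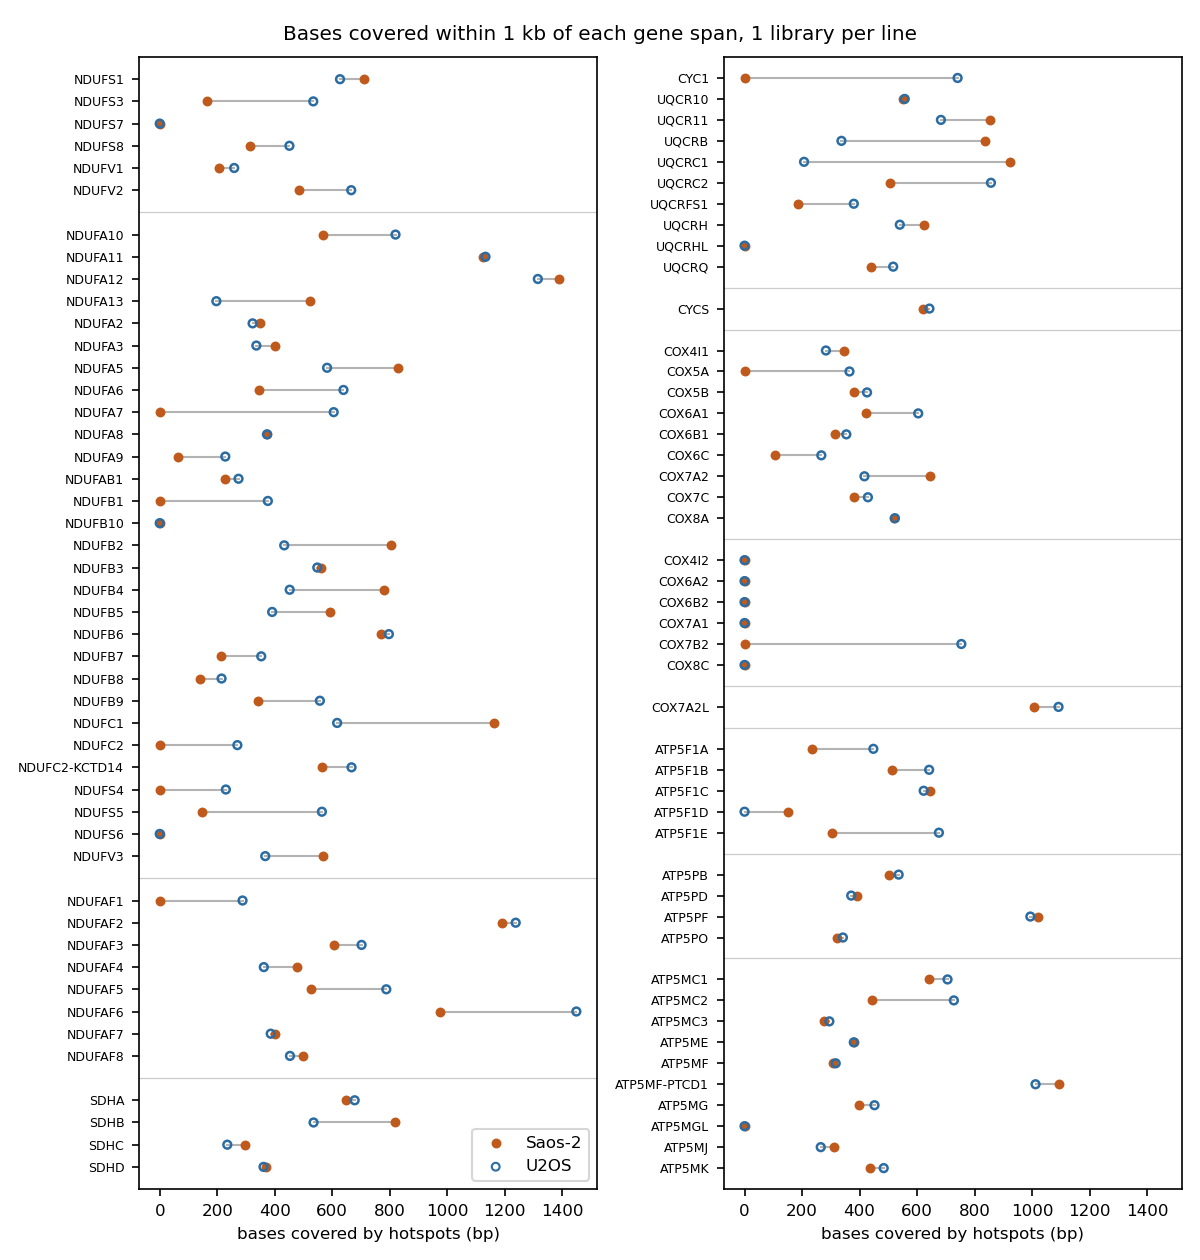
Bases covered by hotspots within 1 kb of each gene span, in bp, for the members in their role groups, 1 of them left out (filled points Saos-2, open points U2OS, 1 library per line; points at 0 have no hotspot). The points of a gene mostly lie close together, as at COX8A with 520 and 523 bp, and UQCRC1, NDUFS5 and NDUFS3 are among those with long lines between them.

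Of the 10 genes covered in neither line, 5 were the complex IV isoforms COX4I2, COX6A2, COX6B2, COX7A1 and COX8C. UQCRHL and ATP5MGL are copies of the complex III gene UQCRH and the ATP synthase gene ATP5MG. Reads from near-identical copies may not map to a single place, and how the authors treated such reads is not given in the sources used here, so the lack of hotspots at these genes is uncertain. The parent genes UQCRH and ATP5MG were covered in both lines. The last 3 were NDUFS6, NDUFS7 and NDUFB10, which encode subunits of complex I. NDUFS6 was the member just outside the limit of 1 kb, with a hotspot 1390 bp away in Saos-2 and 1453 bp away in U2OS with values of 2.29 and 1.88. At NDUFB10 the nearest hotspots lay 2846 and 2767 bp away, and at NDUFS7 11673 and 11179 bp. Just inside the limit, a Saos-2 hotspot at ATP5MF-PTCD1 lay 999 bp from the span with a value of 1.80, and a U2OS hotspot at ATP5F1B 898 bp away with 33.2.

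Besides COX7B2, CYC1 and COX5A, U2OS alone covered 5 members, all of complex I. NDUFAF1, an assembly factor, had 288 bp with a value of 9.06. NDUFC2 had 270 bp with 5.91, from a hotspot that is also counted for the readthrough gene NDUFC2-KCTD14. NDUFS4 had 230 bp with 4.17 over its start, and NDUFB1 had 376 bp with 3.92, from hotspots also within 1 kb of CPSF2. NDUFA7 had 605 bp with 4.09. Its hotspots of 180 and 256 bp lay near CD320 at the far end, and a hotspot of 169 bp lay at its start, near RPS28. All 5 values stood below the U2OS median of 12.4 for covered members. The nearest Saos-2 hotspots lay 9268 bp (NDUFB1) to 141727 bp (NDUFS4) away.

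Among the 75 members covered in both lines, 7 (9.33%, Wilson 95% interval 4.59 to 18.0) had at least 2-fold more covered bases in U2OS. The share of all genes covered in both was 17.2%. The opposite difference was found at 3 members (4%, 1.37 to 11.1), where 9.07% of all genes had it. Both intervals include the share over all genes. The median log2 ratio of U2OS over Saos-2 was 0.05 (95% interval of the median over genes -0.03 to 0.17), against 0.13 over all genes, and the quartiles were -0.16 and 0.49, against -0.33 and 0.71. At 44 of 75 members (58.7%) U2OS had more covered bases, close to the 58.5% of all genes. The shares past 2-fold stand beside shorter genes with fewer hotspots each, a median of 1 per covered member in each line against 2 per covered gene overall. The part of gene length in these shares was not tested.

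**Figure D3:**
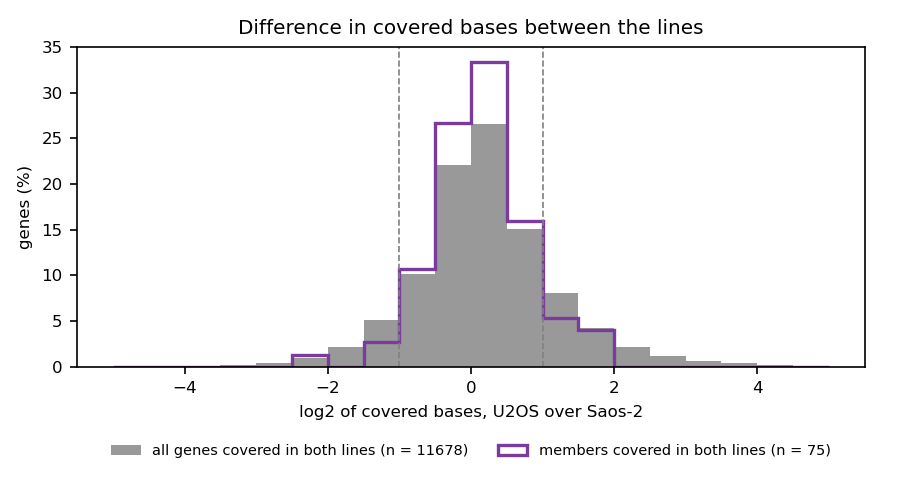
Distribution of the log2 ratio of covered bases, U2OS over Saos-2, in bins of 0.5 for the 75 members and the 11678 genes covered in both lines (percent of each set; dashed lines mark a 2-fold difference). The members form a narrower distribution, with 7 to the right of the upper line and 3 to the left of the lower line.

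The largest ratios toward Saos-2 were at UQCRC1, a core subunit of complex III, at UQCRB of the same complex and at NDUFA13 of complex I. UQCRC1 had 924 bp in Saos-2 against 207 bp in U2OS, a log2 ratio of -2.16. A Saos-2 hotspot of 620 bp at the end far from the start, chr3:48598372-48598991, accounted for most of it, while the start hotspots measured 304 and 207 bp. It lies just outside the gene span, and with the span alone as the window the ratio was -0.70. NDUFA13 had 521 and 197 bp (-1.40), both at a start near TSSK6. UQCRB had 838 and 337 bp (-1.31). The hotspots at the upper end of its span were similar, with 393 and 337 bp and values of 12.9 and 13.0, and the rest came from 2 weaker Saos-2 hotspots elsewhere in the gene, so that the ratio was -0.35 with gene ends only and -2.91 with the gene span alone. NDUFC1 had 4 hotspots in Saos-2, the most at any member in that line together with NDUFAF2, NDUFB6 and ATP5MF-PTCD1, and 2 in U2OS, with 1163 and 617 bp (-0.91, or -0.38 with gene ends only). NDUFB2 had 804 and 433 bp (-0.89) in 1 start hotspot per line.

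Toward U2OS the largest ratios were at the complex I subunits NDUFS5, NDUFA9 and NDUFS3, followed by COX6C and ATP5F1E. NDUFS5 had 146 bp in Saos-2 against 564 bp in U2OS, a log2 ratio of 1.95 that was 3.66 with the gene span alone. NDUFA9 had 63 and 228 bp (1.86), and its Saos-2 hotspot, with a value of 1.73, was the weakest top hotspot of any covered member in that line. NDUFS3, a core subunit of the peripheral arm, had 165 and 534 bp (1.69). In Saos-2 its hotspot was centred 367 bp upstream of the start, next to KBTBD4, and did not reach the promoter window, whereas in U2OS a further hotspot was centred 38 bp upstream. COX6C had 105 and 267 bp (1.35, or 2.03 with windows of 5 kb) and ATP5F1E 303 and 676 bp (1.16). NDUFA9, NDUFS3 and ATP5F1E had no ratio with the gene span alone, nor when hotspots near another gene were left out, because at least 1 line then had no hotspot. The Saos-2 hotspots of these 5 genes measured 63 to 303 bp, below the median of 321 bp for member hotspots, with values of 1.73 to 5.34. NDUFAF6 and NDUFAF2 had the most hotspots in U2OS, 5 each, against 3 and 4 in Saos-2. NDUFAF6 had 974 and 1449 bp, part of it near CCNE2 and TP53INP1.

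Hotspot numbers also differed by chromosome. U2OS had 1.64-fold as many hotspots as Saos-2 on chromosome 8, the highest ratio of any autosome, and 0.875-fold as many on chromosome 21, the lowest. Of the 5 members on chromosome 8, CYC1 was covered in U2OS alone, COX6C, NDUFB9 and NDUFAF6 had more bases in U2OS, and UQCRB had more in Saos-2. The 3 members on chromosome 21, ATP5PO, ATP5PF and NDUFV3, had log2 ratios of 0.09, -0.04 and -0.63. The part of the chromosome-wide numbers in the values of the members was not tested.

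In both libraries the members had higher −log10 values than genes in general. The highest −log10 value of a covered gene had a median of 10.6 in Saos-2 (95% interval over genes 8.01 to 12.9) and 12.4 in U2OS (10.9 to 14.5), against 7.97 and 10.1 over all covered genes. As a percentile within its own list, the top hotspot stood at medians of 84.4 (Saos-2) and 83.3 (U2OS), against 76.5 and 77.7. With hotspots near a single gene only, the Saos-2 median was 7.96, against 7.22 over all genes. Of the 75 members covered in both lines, 54 (72.0%) had the higher value in U2OS, where 66.1% of all genes did, but only 42 (56.0%) had the higher percentile there, where 56.6% of all genes did.

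**Figure D4:**
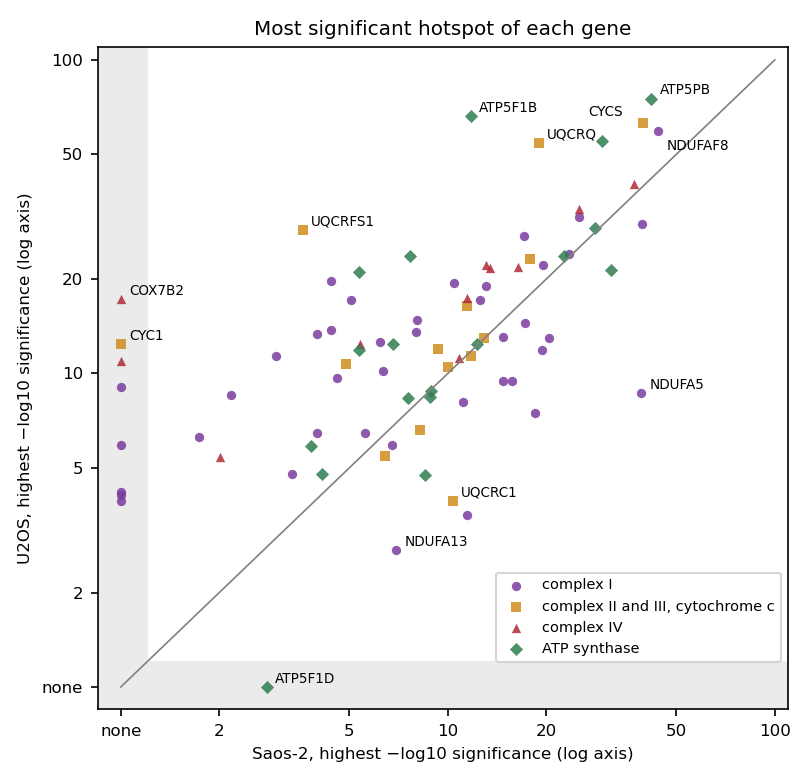
Highest −log10 significance of any hotspot within 1 kb of each member, Saos-2 on the x axis and U2OS on the y axis, both log axes with an added position for genes without a hotspot (grey bands); each point is 1 of the 84 genes covered in at least 1 line. ATP5PB, CYCS and NDUFAF8 stand highest in Saos-2 and near the top in U2OS, where ATP5F1B lies above CYCS and NDUFAF8. Of the 75 genes covered in both, 54 lie above the diagonal.

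Sites near the members were shared between the lines more often than sites near genes in general. Of the 113 Saos-2 hotspots near members, 99 shared at least 1 bp with a U2OS hotspot (87.6%, Wilson 95% interval 80.3 to 92.5), where 61.2% of the hotspots near all genes did. Of the 129 U2OS hotspots, 100 (77.5%, 69.6 to 83.9) overlapped a Saos-2 hotspot, against 52.9%. Width and significance moved with this measure. The median width of member hotspots was 321 bp in the Saos-2 list and 326 bp in the U2OS list, where it was 246 and 257 bp near all genes. Their median −log10 values were 7.25 and 8.77, against 4.22 and 4.92. Within the members, hotspots without an overlap were narrower, with medians of 159.5 against 342 bp in Saos-2 and 202 against 354.5 bp in U2OS. They were also weaker, at 2.77 against 8.53 and 4.09 against 11.0. The part of width and significance in the sharing was not tested.

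At the 75 members with an annotated promoter window, from 250 bp before to 50 bp after a start, 61 had a hotspot over it in Saos-2 (81.3%), where 47.9% of the 15101 genes with such a window did, and 68 in U2OS (90.7%), where 52.2% did. The table lacks a window for 19 members, so these shares hold for the other 75 only. All 61 were covered there in both lines (81.3%, against 43.6% of all genes with a window), 0 in Saos-2 alone (against 4.36%; Wilson upper limit 4.87%), 7 in U2OS alone (9.33%, against 8.64%) and 7 in neither (9.33%, against 43.4%). The 7 with a promoter hotspot in U2OS alone were NDUFS3, NDUFS4, NDUFB1, NDUFA7, NDUFAF1, NDUFC2-KCTD14 and COX5A. The most significant hotspot of a gene lay over its promoter window at 56 of 63 covered members in Saos-2 (88.9%) and at 64 of 69 in U2OS (92.8%), where 54.5% of all such genes in each line had it there. The hotspots over the windows were centred upstream of the start, by a median of -90 bp (Saos-2) and -85 bp (U2OS). Coverage around the first start of each gene was highest from 30 to 10 bp upstream in Saos-2, where 56 of 75 genes (74.7%) were covered. In U2OS it was highest from 70 to 30 bp upstream, where 63 (84%) were.

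**Figure D5:**
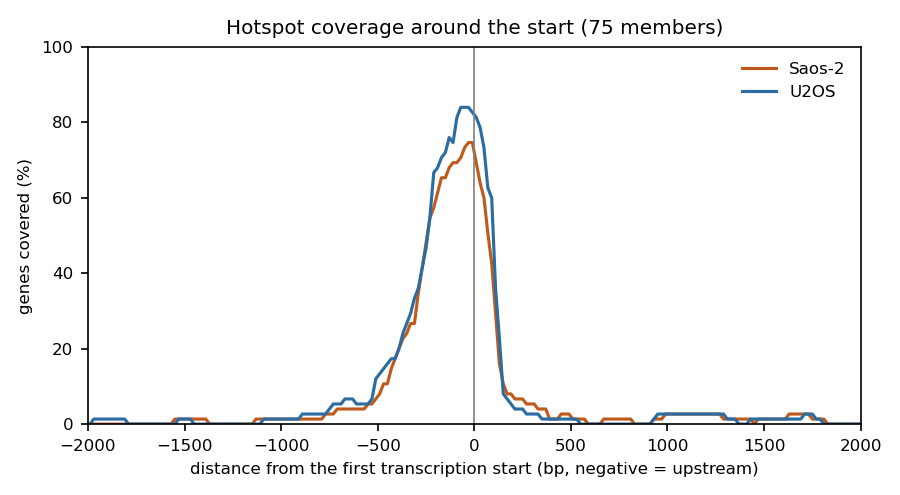
Share of the 75 members with a promoter window that a hotspot covered, in percent, by distance from the first transcription start in bp (negative values lie upstream; 1 line per library, read every 20 bp). Both curves rise upstream of the start and fall soon after it, and the U2OS curve peaks at 84% against 74.7% in Saos-2.

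Related genes outside the rule were read against the same 65.7% and 71.8% of all genes. All 14 listed regulators of mitochondrial biogenesis had a hotspot in both lines, among them PPARGC1A, the coactivator, a gene of 680885 bp with 681 bp in Saos-2 against 2132 bp in U2OS, and NRF1, with 1225 and 590 bp. TFAM, which packages mitochondrial DNA, had 372 and 493 bp with −log10 values of 5.82 and 24.7. Of 34 further assembly factors of the complexes, 31 were covered in Saos-2 (91.2%) and 32 in U2OS (94.1%). COX19 and TACO1 were covered in Saos-2 alone, and COX20, SURF1 and SDHAF1 in U2OS alone. NDUFA1, NDUFB11 and COX7B on the X chromosome were covered in both lines. COXFA4 had 621 and 623 bp, and COXFA4L2 had 200 bp in U2OS and no hotspot in Saos-2.

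Marker lists were read the same way to check the labelled cell type. Of 6 osteoblast markers, 4 were covered in each line; COL1A2 had no hotspot in either, SP7 had one in Saos-2 alone and COL1A1 in U2OS alone. Of 4 blood cell markers 3 were covered in each line, of 3 hepatocyte markers 1, and of 4 muscle markers 1 in Saos-2 and 3 in U2OS. The osteoblast share, 66.7% in each line, stood near the 65.7% and 71.8% of all genes, so these short lists say little about the lineage.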

How the data were processed

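DNase-seq libraries of Saos-2 and U2OS, 1 each, were analysed as lists of hotspots. Per the deposited file names, the authors called hotspots at a false discovery rate of 0.05 on hg38. The lists were deposited per library with a −log10 value for each hotspot, read here as its significance because the lowest value is 1.30 and values stop at 100, and with a score that differs from 10 times that value by at most 0.5. The −log10 values served to rank and describe hotspots and the score was not used further. Per the submitters' processing notes, Trimmomatic 0.38 and BWA 0.7.15 were used, in roles the notes do not give; the hotspot caller and the treatment of duplicate or multiply mapping reads are not given in the sources used here. Read depth is unknown.

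Gene spans came from a RefSeq table on GRCh38.p14. A hotspot was assigned to every gene whose span lay within 1 kb, and covered bases were counted inside that window. Hotspots of the lines overlapped when they shared at least 1 bp. A gene was called different at 2-fold in covered bases. Shares have Wilson 95% intervals, and medians have binomial intervals over genes, which are not independent replicates. Values over all 19126 protein-coding genes of chromosomes 1 to 22 stand beside those of the members. Python 3.11.15, numpy 2.4.6, pandas 2.3.3, scipy 1.17.1 and matplotlib 3.10.9 were used, and the counting was tested on simulated lists.

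The genes named are those without a hotspot in at least 1 line, complex II, CYC1, CYCS and the complex IV isoform pairs, the gene with the most significant hotspot per role group and line, the 5 largest log2 ratios in each direction and the genes with the most hotspots. Members that touch a result outside these are given as examples. The values of 1 member that this rule selects are not reported here, and it stays in the counts. The members and lists were chosen with earlier results of these data known. Alternatives were other windows, other overlaps, stricter significance, merged hotspots, lists of equal length and, added after the data had been seen, structural subunits alone, older symbols and hotspots near 1 gene only.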

Additional observations from a re-analysis of the deposited data

How the results depend on the processing

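Among 316 values computed under alternative settings, 12 of the counts and shares over the list and 8 values of single genes or role groups moved, and none of the 10 largest log2 ratios changed sign where it had a value. With windows around the gene ends only, 16 members were covered in neither line, where 40.9% of all genes were. With the gene span alone, 0 members were covered in Saos-2 alone, where 4.98% of all genes were, and 7 had at least 2-fold more bases in Saos-2. With windows of 5 kb, 6 members were covered in neither line and 5 had at least 2-fold more bases in Saos-2. A wider window can only lower the number covered in neither line, for any set of genes. No share over all genes was taken for the 2-fold counts under these settings. Counting hotspots near 1 gene only was a setting added after the data had been seen. It left 46 members covered in Saos-2 (48.9%, below the 53.0% of all genes) and 51 in U2OS (54.3%, below 58.1%). It left 45 in both (47.9%, as over all genes) and 42 in neither (44.7%, above 36.8%). The higher coverage of the list was thus not seen under that setting. However, the setting drops hotspots near more than 1 gene. A neighbour within 1 kb was present at 56.4% of members, against 39.5% of all genes. The list and all genes are therefore not compared on equal terms there. Members with and without a neighbour each stood above all genes of the same kind in both lines. With hotspots near 1 gene only, the median highest −log10 value in Saos-2 was 7.96. With an overlap of at least 50% of both hotspots, 77.9% of the Saos-2 and 68.2% of the U2OS member hotspots were shared. The share near all genes was not computed for that overlap. Among the named ratios, UQCRC1 was -0.70, UQCRB -2.91 and NDUFS5 3.66 with the gene span alone, UQCRB -0.35 and NDUFC1 -0.38 with gene ends only, COX6C 2.03 with windows of 5 kb and NDUFC1 -1.19 with hotspots near 1 gene only. ATP5F1E, NDUFS3 and NDUFA9 had no ratio with the gene span alone or with hotspots near 1 gene only, NDUFA13 had none under the latter, and NDUFA9 had none with −log10 values of at least 2. The cause of these moves was not tested. No paired analysis was possible because each line was represented by 1 library. A difference between the libraries and a difference between the lines cannot be told apart. The read depth of both libraries is unknown, so a member with no listed hotspot may have held accessible sites under the authors' limit.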
